A study of Mus musculus with 4 samples.

Results

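Cycling macrophages of the mouse prostate were selected on measured values, as macrophages in single-cell libraries that carried transcripts of the proliferation genes Mki67 and Top2a. A cell was a member if it had at least 500 UMIs (unique molecular identifiers, the counted transcripts) from 200 or more genes, with up to 20% of them mitochondrial, at least 10 UMIs of the complement genes C1qa, C1qb and C1qc per 10000 UMIs, no Cd3e UMI, at most 1 Epcam UMI, under 10 UMIs of Cdkn2a, Crabp1 and Stmn2 per 10000, and at least 3 UMIs of Mki67 and Top2a together. The rule found 397 members among 31165 cells that passed the depth filters, out of 36326 barcodes. Macrophages by the same rule without the Mki67 and Top2a condition numbered 6985.

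Prostates of a genetic mouse model of prostate cancer were dissociated and profiled with the 10x Chromium 3′ kit. The groups were Trp53-intact mice aged 4 months, Trp53-intact mice given ADT aged 5.5 months, mice with a prostate-restricted deletion of Trp53 (written PC in the genotype) aged 3.5 months, and mice with that deletion given ADT aged 5.5 months. ADT is not spelled out in the labels and is read here as androgen deprivation therapy. Each group is 1 library, with no statement of how many mice went into it, so no difference between groups has a replicate check. An effect of ADT or of genotype cannot be told apart from one of age or of the single library. The deletion is in prostate cells, so the macrophages described here are host cells of the tumours and are not themselves labelled as Trp53-deleted. In every series of 4 values below the order is Trp53-intact, Trp53-intact ADT, Trp53-deleted, Trp53-deleted ADT.

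Macrophages of adult tissues are kept up by monocytes that arrive from the blood and by division in place. A dividing cell loads helicases on its origins in G1, makes nucleotides, histones and DNA in S phase, and then builds the kinetochores and spindle of mitosis, with genes of the last step switched on in G2 and M. Macrophages can divide while keeping their differentiated character, and in many tissues the transcription factor Maf is known to restrain such division.

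The members differed from other macrophages by the genes of the rule, and these values are a description of how they were chosen. Mki67, the nuclear proliferation antigen, stood at 378, 384, 311 and 427 CPM (UMIs of the gene per 1000000 UMIs, both summed over the cells of a class in a library) in the cycling macrophages. Top2a, the topoisomerase that untangles replicated DNA, stood at 559.6, 509, 380.1 and 530.1 CPM. Both genes were present in 47 of 70, 21 of 30, 20 of 26 and 231 of 271 members. At the threshold itself, 13, 4, 3 and 46 members had exactly 3 UMIs, and 35, 19, 13 and 148 macrophages just outside it had 2.

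The label was checked on macrophage markers outside the rule. C1qb, a rule gene and so high by selection, was at 4576, 4734, 3423 and 4604 CPM. The comparison was with other cycling cells, which met the same threshold of 3 Mki67 and Top2a UMIs but had under 10 C1q UMIs per 10000. Csf1r, the receptor for the macrophage growth factor CSF1 and no part of the rule, was at 575, 588, 418 and 704 CPM against 15.9, 8.4, 13.9 and 8.84 CPM in those other cells. Adgre1, the macrophage surface receptor F4/80, was at 318, 301, 204 and 346 CPM against 9.15, 2.19, 11.5 and 2.01. The members were therefore well above the other cycling cells for both genes. Csf1r was found in 66 of 70, 27 of 30, 24 of 26 and 266 of 271 members. T cell markers summed to 16.1, 9.15, 15.1 and 11 CPM over 7 genes, of which 3, 4, 4 and 0 were at 0. C1q UMIs were also present outside macrophages: 3.73%, 2.40%, 6.67% and 18.8% of cells with a neutrophil profile reached 10 C1q UMIs per 10000, while the median cycling macrophage held 133, 145, 91.2 and 136.

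Cells that stand apart were counted before the comparisons. Barcode sequences found in more than 1 library numbered 128, 4 members had such a barcode, and none was shared between members. Among members 6 of 70, 1 of 30, 3 of 26 and 36 of 271 were marked by the highest Scrublet doublet scores and were kept. Of all macrophages 8.99%, 8.84%, 8.68% and 7.50% were so marked. The condition on Cd3e removed 2, 2, 0 and 2 cells, that on Epcam 5, 2, 1 and 13, and the condition on Cdkn2a, Crabp1 and Stmn2 removed 20, all from the Trp53-deleted ADT library. UMIs of other cells' markers were common at this depth, and 69 of 70, 26 of 30, 24 of 26 and 265 of 271 members had at least 3 of them.

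Few cells carried the description in 3 of the libraries. There were 70, 30, 26 and 271 cycling macrophages among 2070, 894, 956 and 3065 macrophages. They made up 3.38% (exact Clopper-Pearson 95% interval 2.65 to 4.25), 3.36% (2.28 to 4.76), 2.72% (1.78 to 3.96) and 8.84% (7.86 to 9.90) of macrophages. The interval of the Trp53-deleted ADT library lay above those of the other 3, which overlapped one another. These intervals cover counting error alone.

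**Figure D1:**
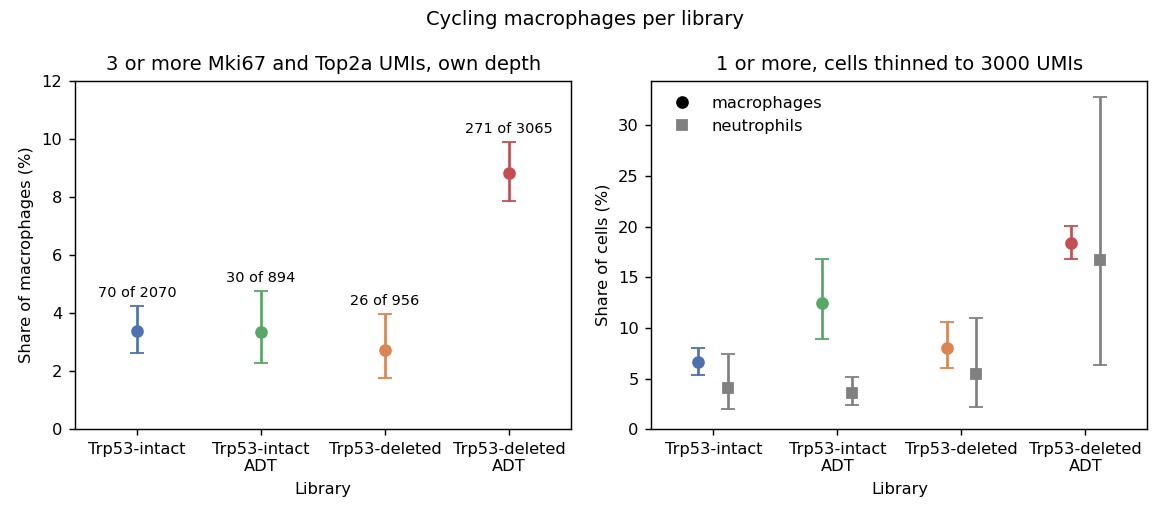
Share of cycling macrophages per library (%), with exact 95% intervals: left, macrophages with 3 or more Mki67 and Top2a UMIs at their own depth, as percent of macrophages, with cell counts above each point; right, cells with 1 or more such UMI after each cell was thinned to 3000 UMIs, for macrophages (circles) and neutrophils (grey squares). The Trp53-deleted ADT library is highest at 8.84% on the left, while on the right its macrophages (18.4%) and neutrophils (16.7%) overlap.

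Depth moves with these shares. The median cycling macrophage held 19917.5, 31923, 17767 and 19208 UMIs, while macrophages with no Mki67 or Top2a UMI held 8396, 1038.5, 3964 and 7491.5. Of macrophages with 10000 to 20000 UMIs, 2.99%, 2.99%, 5.04% and 9.44% were cycling, and of those with more, 28.7%, 24.1%, 19.0% and 49.8%. After every macrophage was thinned to 3000 UMIs, leaving out 692, 597, 361 and 911 shallower ones, 1.96%, 3.37%, 2.02% and 5.76% still had 3 UMIs. The Trp53-deleted ADT library was again the highest, but its interval (4.81 to 6.83) now overlapped that of the Trp53-intact ADT library (1.63 to 6.10).

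Mki67 and Top2a UMIs were also counted in neutrophils, which as mature cells do not divide. These were cells with at least 50 S100a8 and S100a9 UMIs and under 2 C1q UMIs per 10000. Cells with a neutrophil profile and more C1q RNA were thus left out. With 1 thinned UMI as the mark, 6.60%, 12.5%, 8.07% and 18.4% of macrophages were positive, against 4.08%, 3.55%, 5.47% and 16.7% of neutrophils, whose median depth was 3590, 3721.5, 3506 and 3304 UMIs. In the Trp53-deleted ADT library the neutrophil value was 6 of 36 cells (6.37 to 32.8), so the 1-UMI share of macrophages there could not be set apart from it and is not read as division. With 3 UMIs at own depth, 1 of 384, 5 of 956, 2 of 334 and 0 of 165 neutrophils were positive, the last of which allows a share of up to 1.82% (3 counts of the total). After thinning, 3 UMIs were found in 1 of 245, 4 of 760, 0 of 128 and 0 of 36 neutrophils, and the last allows up to 8.33% by the same limit (exact upper bound 9.74%), above the 5.76% of macrophages. T cells of the Trp53-deleted ADT library had 3 thinned UMIs in 3.50% (1.76 to 6.18). What put these UMIs in neutrophils, and its part in the macrophage shares, was not tested.

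Cycling macrophages were 30.8%, 22.6%, 30.6% and 30.7% of all cells with 3 or more Mki67 and Top2a UMIs, which numbered 227, 133, 85 and 884. The Trp53-deleted ADT library thus had the most cells past that threshold among other cells as well. There 24.8% of cells in the fibroblast gate and 12.9% of those in the endothelial gate had 3 or more such UMIs, and 5.52% of those in the T cell gate, against at most 0.372%, 3.14% and 2.41% in the other libraries. Other gates did not share this, with 1.12% of B cells and 4.93% of epithelial cells there against 5.22% and 5.25% in the Trp53-intact library. These shares are at own depth. The fibroblast gate had a median of 7005, 9635, 7736.5 and 17242 UMIs. The endothelial gate had 9499, 7336.5, 6006 and 10371, and the T cell gate 5195, 6175.5, 4657 and 5095. All gates took only cells with under 2 C1q UMIs per 10000. The gates set no limit on Cdkn2a, Crabp1 and Stmn2, so the fibroblast gate can hold other cells with collagen or Dcn UMIs.

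Genes of every step of the cell cycle were higher in cycling than in non-cycling macrophages of the same library. The class without any Mki67 or Top2a UMI served as the non-cycling one, so this is the contrast of the rule, and the counts below describe the members without testing them. A gene was measured if the 2 classes together held at least 20 UMIs in each library, and called if its level differed at least 1.5-fold in the same direction in all 4, with 5 CPM added to both levels. Of 9649 measured genes, 377 (3.91%) were called higher and 167 (1.73%) lower. The cell cycle and phase lists supplied 132 of the 377, out of 148 measured, and none of the 167.

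Origin licensing came first. Of 16 list genes 13 were measured, and each was higher in all 4 libraries, with a median log2 ratio of 1.85, 1.83, 1.79 and 1.46, against -0.01, 0.01, -0.13 and 0.04 over all measured genes. Mcm7, a subunit of the replicative helicase, was at 166, 141, 98.0 and 93.4 CPM in cycling and at 13.6, 16.1, 10.2 and 15.4 CPM in non-cycling macrophages. Its partner Mcm5 was at 90.6, 83.5, 86.0 and 102 CPM against 6.62, 12.9, 9.79 and 18.1 CPM. For both, the lowest cycling level was above the highest non-cycling one.

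Nucleotide supply and DNA synthesis showed the same separation in 20 of 20 genes, with medians of 2.33, 2.39, 1.75 and 2.001. Rrm2, the subunit of ribonucleotide reductase whose amount follows S phase, was at 103, 108, 104 and 107 CPM in cycling macrophages of the 4 libraries and at 1.09, 2.91, 1.81 and 4.77 CPM in the non-cycling ones. Tyms, which makes thymidylate, was at 107, 91.5, 87.5 and 123 CPM against 5.8, 6.87, 5.98 and 16.1. Pcna, the sliding clamp of DNA polymerase, differed less, at 211, 318, 201 and 194 CPM against 78.9, 100.4, 86.3 and 69.9.

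Histones and chromatin proteins were higher for 15 of 15 measured genes, with medians of 2.47, 2.42, 2.09 and 2.14. The linker histone gene Hist1h1b was at 163, 268, 115 and 189 CPM against 3.82, 2.11, 1.45 and 3.5. Replication-dependent histone transcripts mostly lack a poly(A) tail, so a 3′ kit captures them in part, and their levels here are low estimates. Hmgb2, a chromatin protein of dividing cells, was at 1462, 1432, 894 and 1389 CPM against 197, 227, 109.9 and 199.

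Mitotic genes had the greatest separation. Of 43 genes of the kinetochore, spindle and cytokinesis list, 38 were measured and 38 were higher in all 4 libraries, with medians of 3.36, 3.32, 3.03 and 3.12. Birc5 (survivin of the chromosomal passenger complex) was at 251, 259, 189 and 373 CPM against 2.73, 4.49, 2.9 and 18.5. Cenpf, a kinetochore protein, was at 145, 109.9, 109 and 158 CPM against 2.12, 1.32, 3.99 and 6.04. Prc1, which bundles the microtubules of the central spindle, was at 160.1, 191, 106 and 139 CPM against 1.23, 3.7, 2.36 and 6.52. In each of these genes the non-cycling macrophages of the Trp53-deleted ADT library had the highest non-cycling level.

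Cyclins divided by their place in the cycle. Of 14 measured cyclin and kinase genes 10 were higher in all 4 libraries. Cdk1, the kinase of mitotic entry, was at 183, 245, 96.5 and 192 CPM against 4.09, 5.81, 3.08 and 13.1. Ccnb2, one of its B-type cyclins, was at 119, 92.7, 78.4 and 117 CPM against 1.09, 2.11, 0.725 and 6.04. The D-type cyclins that answer growth signals in G1 were not called: Ccnd1 was at 184, 309, 121 and 185 CPM against 147, 118, 167 and 173, and Ccnd2 at 51.3, 101, 60.3 and 79.5 against 67.5, 93.8, 70.2 and 99.0. For these 2 genes the classes overlapped, and so did Cdk6, the kinase partner of D cyclins, at 68.8, 97.3, 75.4 and 56.6 against 37.7, 58.6, 62.9 and 51.2 CPM.

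**Figure D2:**
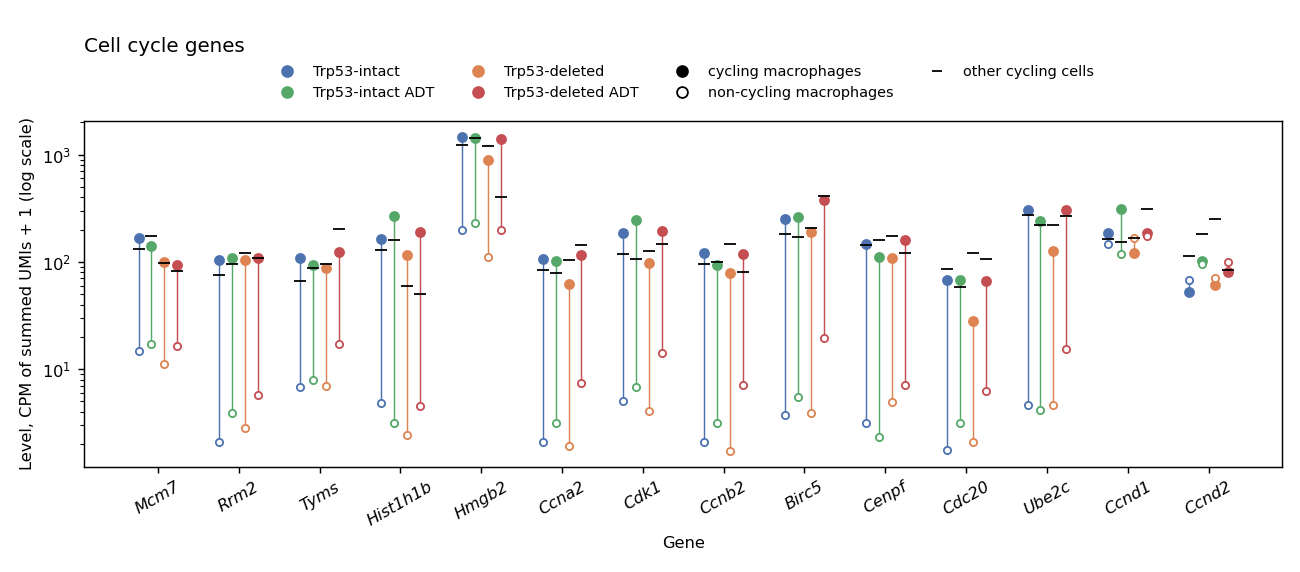
Levels of cell cycle genes in CPM of summed UMIs plus 1, on a log scale, in the 4 libraries (colours), for cycling macrophages (filled circles), non-cycling macrophages (open circles, joined by a line) and other cycling cells (dashes). From Mcm7 to Ube2c every filled circle is above its open circle, while for Ccnd1 and Ccnd2 the circles overlap.

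Transcription factors of the cycle were called higher for 5 of 8 measured genes. Foxm1, the activator of G2 and M genes, was at 33.0, 33.2, 43.7 and 46.4 CPM against 0.819, 0.792, 0.725 and 2.05. E2f8, a repressor that E2F itself induces, was at 21.8, 34.3, 42.2 and 39.8 CPM against 1.09, 0.792, 3.99 and 4.23. E2f1 differed less, at 27.4, 46.9, 45.3 and 44.3 CPM against 12.3, 10.6, 18.5 and 16.6. Of the mitotic exit and ubiquitin ligase list 6 of 9 measured genes were called, among them Cdc20, the activator of the anaphase-promoting complex, at 67.4, 66.4, 27.2 and 64.7 CPM against 0.751, 2.11, 1.09 and 5.31, and Ube2c, the ubiquitin-conjugating enzyme of that complex, at 303, 241, 125 and 302 CPM against 3.62, 3.17, 3.63 and 14.5.

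Promoters of 4 of these mitotic genes and of the S-phase gene Rrm2 are printed because the lists they belong to differ in a sequence element. The sequences run 5′ to 3′ on the strand of the gene, from 120 bases before its start to 30 bases from it, and come from RefSeq on GRCm38.p6. Capitals mark TTTGAA (the cell cycle genes homology region, CHR) and CCAAT (the element bound by NF-Y), each on either strand, so that TTCAAA and ATTGG are the same motifs on the opposite strand. No match of one motif overlapped a match of the other in these windows. Cdk1 lies at chr10:69352883-69353032 on the minus strand, Ccnb2 at chr9:70421525-70421674 (minus), Cdc20 at chr4:118437314-118437463 (minus), Ube2c at chr2:164769809-164769958 (plus) and Rrm2 at chr12:24708134-24708283 (plus).
Cdk1: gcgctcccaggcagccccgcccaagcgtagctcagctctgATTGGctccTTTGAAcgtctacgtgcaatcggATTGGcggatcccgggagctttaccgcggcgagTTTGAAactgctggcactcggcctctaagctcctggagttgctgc
Ccnb2: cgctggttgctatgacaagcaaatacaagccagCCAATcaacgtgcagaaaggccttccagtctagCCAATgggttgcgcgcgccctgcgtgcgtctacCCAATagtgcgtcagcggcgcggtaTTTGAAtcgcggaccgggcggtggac
Cdc20: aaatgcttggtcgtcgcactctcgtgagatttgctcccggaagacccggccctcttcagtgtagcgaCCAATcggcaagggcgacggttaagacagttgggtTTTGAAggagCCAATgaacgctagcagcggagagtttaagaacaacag
Ube2c: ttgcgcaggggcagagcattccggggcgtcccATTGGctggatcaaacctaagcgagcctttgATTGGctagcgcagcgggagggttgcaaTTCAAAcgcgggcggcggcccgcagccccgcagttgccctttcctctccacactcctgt
Rrm2: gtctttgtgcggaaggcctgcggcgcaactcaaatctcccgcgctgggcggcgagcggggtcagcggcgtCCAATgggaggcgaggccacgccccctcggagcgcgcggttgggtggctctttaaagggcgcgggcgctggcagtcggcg

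Each of the 4 mitotic promoters held TTTGAA near the start, Cdk1 at 2 places and the others at 1, and 2 or 3 CCAAT matches. Rrm2 held 1 CCAAT match and no TTTGAA in the printed window. In the RefSeq windows of 300 bases, 43 of the 49 genes of the G2/M phase list were matched, and 30 of them (69.8%) held TTTGAA, against 18.1% of 27025 genes in the table. Of the S-phase list 29 of 41 genes were matched and 5 (17.2%) held it. Among lists outside mitosis the share varied, from 0 of 6 matched MHC class II genes to 3 of 7 histone and chromatin genes. Genes of monocyte-derived macrophages, at 6 of 14 (42.9%), were as high as the latter. CCAAT was in 74.4% of the G2/M and 69.0% of the S-phase windows, against 37.9% of all. A match describes these letters and is not evidence of binding in these cells.

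Beyond the fixed lists, the called genes with the greatest smallest ratio over the 4 libraries were named as the rule's own contrast ranks them. Pbk, a mitotic kinase, was at 61.8, 80.1, 52.8 and 67.6 CPM against 0.409, 1.85, 0.725 and 1.69. Knl1, the kinetochore scaffold, was at 76.5, 66.4, 42.2 and 76.1 CPM against 0.478, 1.85, 0.363 and 2.42. Aspm, of the spindle pole, was at 56.9, 35.5, 55.8 and 40.3 CPM against 0.614, 0.528, 0.181 and 1.21. The other 9 of the 12 named by this rule were Cit, Kif4, Cep55, Shcbp1, Melk, Knstrn, Lockd, Hist1h2ab and Esco2, with log2 ratios between 2.58 and 3.39 in the single libraries. Esco2 acetylates cohesin in S phase, and Kif4 and Cit act at the central spindle.

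Cell cycle brakes did not move as one. Of 15 measured genes 3 were higher in all 4 libraries and 1 lower, with medians of 0.14, -0.27, -0.04 and -0.03. The INK4 inhibitor Cdkn2c was at 54.8, 53.8, 54.3 and 86.9 CPM in cycling and at 10.2, 8.72, 10.5 and 15.4 CPM in non-cycling macrophages. Cdkn2d, of the same family, was at 76.5, 103, 27.2 and 64.3 CPM against 19.7, 21.1, 14.0 and 16. Both are known to be expressed in dividing cells late in the cycle, and the classes did not overlap for either. Rbl1, the pocket protein p107 and an E2F target, was at 33.0, 33.2, 22.6 and 40.7 CPM against 9.01, 8.98, 13.2 and 10.9. Tob1, an antiproliferative protein of quiescent cells, was lower, at 16.9, 12.6, 9.05 and 44.5 CPM against 34.7, 50.5, 49.7 and 75 CPM. Cdkn1a, the p53 target p21, was not called, at 449, 467, 783 and 479.6 CPM against 278, 490.3, 252 and 461, and 1 cell held 49.3% of its UMIs in the Trp53-deleted library.

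The macrophage identity list was level between the classes in its medians, though not in every gene. None of its 18 measured genes was called in either direction in all 4 libraries, and its medians were 0.00, 0.08, -0.04 and -0.16. At least 1.5-fold higher were 0, 2, 2 and 0 of them, beside 11.9%, 15.7%, 12.5% and 7.9% of all measured genes. At least 1.5-fold lower were 2, 4, 4 and 0, beside 12.4%, 18.3%, 24.4% and 3.55%. Fcer1g, the signalling chain of Fc receptors, was at 2375, 3118, 2116 and 2356 CPM in cycling and at 2296, 2104, 2039 and 2619 CPM in non-cycling macrophages. Mertk, the receptor for the clearance of dead cells, was at 21.8, 46.9, 21.1 and 55.3 CPM against 59.1, 83.5, 66.2 and 74.8. Mertk was thus lower in cycling cells of each library, though under 1.5-fold in the Trp53-deleted ADT library. Csf1r and Adgre1, used above for the label, were also lower in cycling than in non-cycling cells of each library, by unequal amounts. Among cells of 10000 or more UMIs, Csf1r was at 556, 580, 393 and 700 CPM against 819, 599, 967 and 833. Adgre1 was there at 309, 286, 184 and 347 CPM against 457, 348, 472 and 402.

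Genes of resident tissue macrophages were lower in cycling macrophages, strongly in 3 libraries and by less in the Trp53-deleted ADT library. Of 17 measured genes, 17, 14, 16 and 4 were at least 1.5-fold lower, beside 12.4%, 18.3%, 24.4% and 3.55% of all measured genes, and none was 1.5-fold higher in any library. The list's median log2 ratio was -1.68, -2.15, -2.40 and -0.25. Among cells of 10000 UMIs or more alone, an alternative added after the data were seen, the medians were -1.76, -2.22, -2.39 and -0.31. In such sums, fewer cells with a gene and less of its RNA per cell cannot be told apart.

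Cd163, the scavenger receptor for haemoglobin, was at 13.3, 0, 15.1 and 4.34 CPM in cycling and at 156, 147, 191 and 26.0 CPM in non-cycling macrophages. Lyve1, the hyaluronan receptor of perivascular macrophages, was at 21.1, 0, 6.03 and 26.6 CPM against 171, 176, 157 and 33.1. Mrc1, the mannose receptor, was at 419, 32.0, 350.0 and 631 CPM against 1086, 771, 1455 and 578. Mrc1 was therefore lower in cycling cells of the first 3 libraries and about level in the Trp53-deleted ADT library.

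Secreted products of the resident list had the same order. Ccl8, a monocyte-attracting chemokine, was at 1226, 29.8, 136 and 634 CPM in cycling and at 5428, 1794, 3557 and 909.8 CPM in non-cycling macrophages. Selenop, the selenium carrier, was at 819, 394, 594 and 884 CPM against 2670.3, 1199.6, 3126 and 1247. Gas6, a bridging ligand for Mertk, was at 93.4, 48.1, 142 and 117 CPM against 362, 228, 589.7 and 165. Those called lower in all 4 libraries were 3 of 17, Cd163, Cd209f and Txnip, of which Txnip is known as a brake on glucose uptake.

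**Figure D3:**
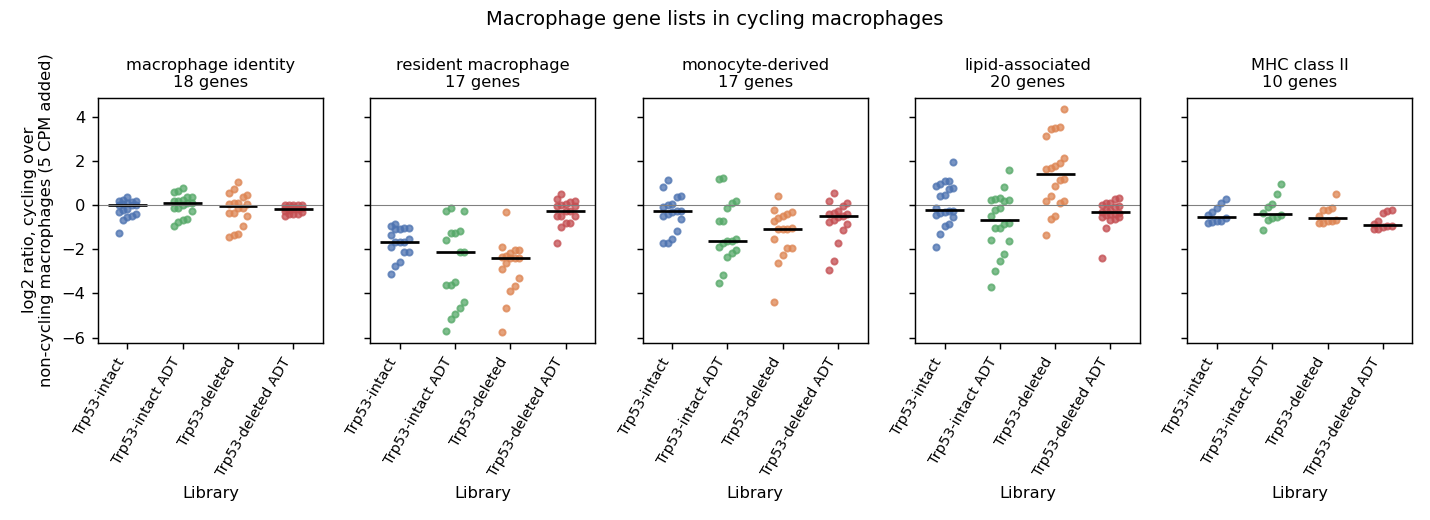
log2 ratio of cycling over non-cycling macrophages, with 5 CPM added to both, for each measured gene (points) of 5 macrophage gene lists in the 4 libraries, with the list's median as a black line. The identity list lies around 0, the resident list lies below 0 in 3 libraries and near 0 (-0.25) in the Trp53-deleted ADT library, and the lipid-associated list is above 0 in the Trp53-deleted library.

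A pair of resident genes was also counted cell by cell. After thinning to 3000 UMIs, 11 of 65, 0 of 26, 3 of 25 and 40 of 261 cycling macrophages had a UMI of Folr2 or Cd163, which is 16.9% (8.76 to 28.3), 0%, 12% (2.55 to 31.2) and 15.3% (11.2 to 20.3). The 0 of 26 allows a share of up to 11.5% by the limit of 3 counts (exact upper bound 13.2%). Non-cycling macrophages had it in 39.9%, 18.6%, 50.4% and 11.4%, and neutrophils in 3 of 245, 0 of 760, 4 of 128 and 0 of 36 cells. These neutrophils were limited to under 2 C1q UMIs per 10000. That choice itself lowers their macrophage RNA, so their counts are no free measure of background. The share was lower in cycling macrophages of the first 3 libraries, while in the Trp53-deleted ADT library the intervals of both classes (non-cycling 9.72 to 13.2) overlapped.

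Read the other way, macrophages were split by their leading gene pair and the share with a Mki67 or Top2a UMI was taken after thinning. Of macrophages led by Folr2 and Cd163, 3.99% (2.38 to 6.23), 2.63% (0.07 to 13.8, 1 of 38 cells), 5.60% (3.095 to 9.22) and 14.4% (8.12 to 23.0) had such a UMI. Of those led by Cx3cr1, the fractalkine receptor, and Ms4a4c, 7.47% (5.37 to 10.1), 18.8% (12.5 to 26.5), 12.6% (8.14 to 18.3) and 19.0% (17 to 21.1) had one. Median depth was 11353, 13640.5, 8889.5 and 12092 UMIs in the first set and 10674, 15090, 9432 and 11739 in the second. The second share was the higher in each library, but the intervals of both overlapped in all 4. Macrophages led by Gpnmb and Spp1 had 7.84%, 15.7%, 6.45% and 13.2%, and those with no leading pair 8.58%, 4.00%, 6.87% and 20.9%, the last group being above the Cx3cr1 set in 2 libraries. By the same mark neutrophils had 4.08%, 3.55%, 5.47% and 16.7% (6.37 to 32.8 in the last). In the Trp53-deleted ADT library these shares are therefore not read as division.

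None of the 16 measured genes for growth receptors and self-renewal was called in all 4 libraries, and the list's medians were -0.46, -0.67, 0.04 and -0.18. Its members went both ways, with 1, 0, 4 and 0 at least 1.5-fold higher and 6, 9, 5 and 1 lower. Over all measured genes 11.9%, 15.7%, 12.5% and 7.9% were higher and 12.4%, 18.3%, 24.4% and 3.55% lower. Maf, the transcription factor named above, was at 487, 116, 161 and 399.8 CPM in cycling and at 1161, 540.0, 956 and 419 CPM in non-cycling macrophages. Klf4, a reprogramming and quiescence factor, was at 169, 185, 119 and 563 CPM against 382, 665, 316 and 749. Klf4 was lower in cycling cells of each library, though under 1.5-fold in the Trp53-deleted ADT library. Klf2, a related factor, was at 240.1, 315, 60.3 and 651 CPM against 768, 410.3, 219 and 556, and so was the higher in cycling cells of that library. These 3 genes were picked after their values were seen. A list of 17 genes induced by tissue dissociation had medians of -0.77, -1.14, -0.51 and -0.09 between the same classes. Of its genes 11, 15, 7 and 2 were at least 1.5-fold lower and 0, 0, 1 and 0 higher. Its part in the values of Klf2 and Klf4 was not tested.

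Genes of monocyte-derived macrophages were lower in part. Of 17 measured genes 2 (Ly6c2 and Ifitm6) were lower in all 4 libraries and none higher, with 5, 12, 12 and 7 lower in the single libraries (12.4%, 18.3%, 24.4% and 3.55% of all measured genes) and medians of -0.29, -1.62, -1.07 and -0.51. Ly6c2, the surface antigen of classical monocytes, was at 4.91, 4.58, 4.53 and 13.9 CPM in cycling and at 28.0, 26.9, 40.8 and 141 CPM in non-cycling macrophages. Cx3cr1, of the same list, was instead at 397, 550.4, 145 and 504 CPM against 303, 243, 245 and 447. Cx3cr1 was higher in 3 of 4 libraries, past 1.5-fold in the Trp53-intact ADT library.

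Antigen presentation genes were lower too. By the list's median the factor was smaller than for resident genes in the first 3 libraries. In the Trp53-deleted ADT library it was larger than for the resident (-0.25) and monocyte-derived (-0.51) lists. Of 10 measured genes of the MHC class II list 3 (H2-Aa, Cd74 and Ciita) were lower in all 4 libraries and none higher, with medians of -0.53, -0.41, -0.60 and -0.89. In the single libraries 5, 3, 5 and 7 were at least 1.5-fold lower, beside 12.4%, 18.3%, 24.4% and 3.55% of all measured genes. At least 1.5-fold higher were 0, 1, 0 and 0, beside 11.9%, 15.7%, 12.5% and 7.9%. The alpha chain gene H2-Aa was at 4132, 2675, 4209 and 2708 CPM against 6860.0, 4294, 7392 and 5427. Cd74, the invariant chain, was at 7265, 5518, 9336 and 6455 CPM against 12293, 8368, 15237 and 12317. Ciita, the transactivator of these genes, was at 44.9, 16, 67.9 and 24.0 CPM against 70.9, 41.5, 122 and 51.0. When the mean over cells was used in place of the sum, the list's median in the Trp53-deleted library was 0.18. Among cells of 3000 to 15000 UMIs, which left 10 members in that library, the list's median there was positive too. In cells of that depth Cd74 and H2-Eb1 were level by their median over the libraries.

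Lipid-associated genes set the Trp53-deleted library apart, on very few cells. The list's medians were -0.21, -0.67, 1.41 and -0.33, with 13 of 20 measured genes at least 1.5-fold higher in the Trp53-deleted library beside 12.5% of all measured genes. Spp1, osteopontin, was at 1147, 2011, 9409.6 and 262 CPM in cycling and at 294, 1137, 459.7 and 427 CPM in non-cycling macrophages, but came from 13 cells of the Trp53-deleted library, of which 1 held 44.1% of the UMIs. Gpnmb, a lysosomal glycoprotein, came from 4 cells there. With members counted at 3 or more Mki67 and Top2a UMIs per 10000, the list's median in that library was -1.18. Apoe, the apolipoprotein, was lower in cycling cells of each library, at 13376, 10101, 12569.8 and 17224 CPM against 24630.0, 17926, 19686 and 25075.

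Interferon-response genes differed by library, with medians of 0.24, 0.52, 0.06 and -0.27. Of 23 measured genes 6, 10, 6 and 1 were at least 1.5-fold higher and 3, 1, 4 and 4 lower. Over all measured genes 11.9%, 15.7%, 12.5% and 7.9% were higher and 12.4%, 18.3%, 24.4% and 3.55% lower. Among cells of 10000 or more UMIs the list's medians were 0.16, 0.62, 0.17 and -0.21, on 58, 23, 20 and 236 members. The chemokine gene Cxcl10 was called higher in all 4 libraries, at 1302, 1532, 1486 and 538 CPM against 420.1, 281, 221 and 329.8, but 1 cell held 33.8%, 78.6%, 84.5% and 15.1% of its UMIs. Cxcl9, a related chemokine, was called lower, at 0, 0, 16.6 and 24.0 CPM against 47.4, 49.9, 47.0 and 78.1.

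Genes of metabolism and growth had medians above 0 in each library, but few passed the fold in the Trp53-deleted ADT library, which holds most members. Of 14 measured glycolysis genes 10, 2, 8 and 0 were at least 1.5-fold higher, beside 11.9%, 15.7%, 12.5% and 7.9% of all measured genes, with medians of 0.99, 0.40, 0.61 and 0.16. Gapdh was at 1841, 2218, 1527 and 1238 CPM against 735, 1135, 719 and 878. Of 16 ribosome biogenesis genes 7, 9, 6 and 2 were higher, with medians of 0.52, 0.64, 0.40 and 0.29. Nop56, of the small nucleolar ribonucleoproteins, was at 87.8, 120.2, 81.5 and 85.5 CPM against 37.1, 52.3, 44.8 and 60.1. Of 18 oxidative phosphorylation genes 6, 9, 8 and 0 were higher, with medians of 0.46, 0.59, 0.45 and 0.38. No gene of these 3 lists was 1.5-fold higher in all 4 libraries.

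Markers of other cells were mostly lower in the cycling class, whose cells are deeper. Fibroblast markers summed to 117, 35.5, 98.0 and 414 CPM in cycling and 571, 686, 1530 and 1108 CPM in non-cycling macrophages, and all 5 were lower in all 4 libraries. Neutrophil markers summed to 112, 72.1, 51.3 and 53.5 CPM against 398, 1074, 549 and 490, and red cell markers to 26.0, 11.4, 4.53 and 28.0 against 402, 47.8, 164 and 1371. Among cells of 10000 or more UMIs the red cell sums were 22.0, 10.7, 4.76 and 25.3 against 450, 12.1, 6.77 and 1246, near level in 2 libraries, and the neutrophil sums 111, 73.8, 50.8 and 54.1 against 153, 366, 231 and 181. The fibroblast sums in such cells were still lower in each library, at 115, 33.3, 93.6 and 380 CPM against 414, 477, 1812 and 888. Of the 12 genes with the greatest smallest lower ratio, the leading ones were likewise of such cells, with the matrix gene Dcn at 43.5, 27.5, 75.4 and 59.1 CPM against 283, 584, 1161 and 405, and the neutrophil gene S100a8 at 30.9, 27.5, 22.6 and 9.76 CPM against 151, 497, 231 and 167. Endothelial markers went the other way in 1 library, with 134 CPM in cycling and 51.3 CPM in non-cycling macrophages of the Trp53-deleted ADT library, against 11.9, 11.4 and 16.6 CPM in cycling macrophages elsewhere. The part of these markers in the other results was not tested.

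By phase, G2/M transcripts outnumbered S-phase transcripts in most members of each library. After thinning to 3000 UMIs, which 65, 26, 25 and 261 members reached, each cell was called by the larger of its UMIs of an S-phase list of 41 genes and a G2/M list of 49 genes, both without Mki67 and Top2a. The G2/M list led in 67.7% (54.9 to 78.8), 69.2% (48.2 to 85.7), 68.0% (46.5 to 85.1) and 69.0% (63.0 to 74.5). These intervals overlap, which does not show that the shares are equal, and without thinning the shares were 77.1%, 80%, 73.1% and 73.4%. A cell was within 2 UMIs of the cut in 15, 6, 5 and 52 cases, and the calls divide a range rather than types. Top2a and Mki67 themselves are highest in G2 and M, so the rule favours those phases. The G2/M list also held most of the summed UMIs of both lists in non-cycling macrophages. Its part without thinning was 64.34%, 61.21%, 59.28% and 59.96% in them, against 74.47%, 70.15%, 67.35% and 72.17% in members. A lead of the G2/M list therefore does not by itself place a cell in G2 or M.

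**Figure D4:**
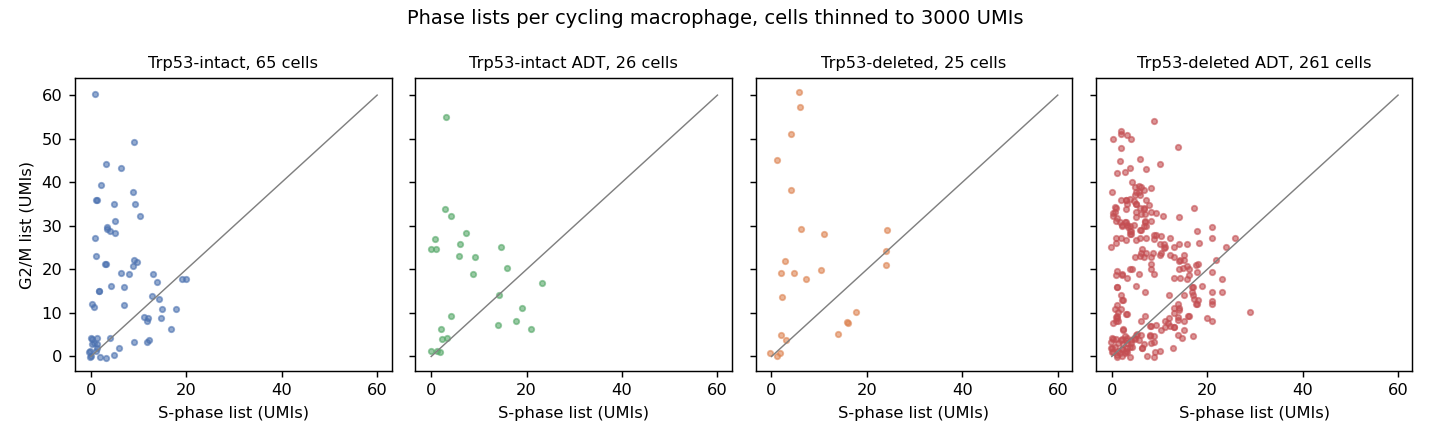
UMIs of the S-phase list and of the G2/M list in each cycling macrophage after thinning to 3000 UMIs, 1 panel per library, with a small random shift so that points do not hide one another. The grey line marks equal sums, and 67.7% to 69.2% of cells lie above it.

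In level, cycling macrophages resembled the other cycling cells in these lists. The S-phase list summed to 2099, 2594, 2136 and 2574 CPM in cycling macrophages and 1590.5, 2244, 2320.2 and 2241 CPM in other cycling cells. The G2/M list summed to 6124, 6096, 4406 and 6673 CPM against 5177, 5494, 6081 and 5192. The Trp53-deleted library, with 26 members, was the one in which cycling macrophages had the lower level of both. The other cycling cells of the Trp53-deleted ADT library had a median of 74561 UMIs, far deeper than its cycling macrophages.

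Between libraries, the resident genes of cycling macrophages differed with ADT in opposite directions in the 2 genotypes. A gene was measured if both libraries together held at least 30 UMIs in cycling macrophages, and called at 2-fold with 5 CPM added. ADT against no ADT in Trp53-intact mice gave 140 genes higher (2.02%) and 271 lower (3.92%) of 6919, and in Trp53-deleted mice 582 higher (6.11%) and 369 lower (3.88%) of 9522. Of 15 resident genes measured in the first comparison 11 were lower and none higher, with a median of -1.63. Of 16 measured in the second 5 were higher and 2 lower, with a median of 0.62. Non-cycling macrophages had medians of -0.86 and -1.76 for the same lists. In the second comparison markers of other cells were higher too, fibroblast markers for 4 of 5 (median 2.86), endothelial for 4 of 4 (2.26) and smooth muscle for 2 of 2 measured (2.16), and their part in it was not tested. In the first, fibroblast markers were lower for 2 of 3 measured and smooth muscle for 2 of 2.

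Mrc1 had this pattern in summed CPM, with 419 CPM in Trp53-intact and 32.0 CPM in Trp53-intact ADT cycling macrophages. It was at 350.0 CPM in Trp53-deleted and 631 CPM in Trp53-deleted ADT ones, which is under 2-fold. It was found in 44 of 70, 8 of 30, 19 of 26 and 250 of 271 members. After thinning, Trp53-deleted members had a mean of 2.52 Mrc1 UMIs and Trp53-deleted ADT members 1.99, the opposite order. There 24% and 10.7% had 5 or more Mrc1 UMIs, while 52% and 73.2% had any. The direction of Mrc1 with ADT in Trp53-deleted mice thus depended on the measure. Pf4, platelet factor 4 and a resident macrophage product, was at 482, 53.8, 321 and 699 CPM. Clec10a, a galactose-binding lectin, was at 145, 8.01, 76.9 and 23.0 CPM and so was lower with ADT in both genotypes. With the mean over cells in place of the sum, the list's median for ADT in Trp53-deleted mice was -0.01, and with 5 or more Mki67 and Top2a UMIs it was 0.02.

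Of all genes called with ADT in Trp53-intact mice, 21 of 140 higher and 27 of 271 lower had over 50% of their UMIs in 1 cell of the higher library. Ranking by size of ratio favours such genes, and of the 16 named by it 9 had over 50% of their UMIs in 1 cell of the higher library, among them Ifnb1, interferon beta, at 327 against 37.2 CPM with 1 positive cell in the ADT library, and Ccl5 at 644 against 44.9 CPM with 96.4% of its UMIs in 1 cell. A second rule, added after the values were seen, kept genes found in at least 10 members of the higher library with at most 25% of UMIs in 1 cell. By it Fcgr1, the high-affinity Fc receptor, was higher with ADT (525 against 190.3 CPM, ratio interval 2.37 to 3.22 by an exact conditional binomial method that covers counting error alone). Ccne2, a cyclin of the G1 to S step, was at 70.9 against 17.6 CPM (2.50 to 6.71). Gdf15, a stress-induced cytokine, was lower, at 1.14 against 90.6 CPM, with a single cell of the ADT library positive.

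In Trp53-deleted mice, the second rule named regulators of transcription among the genes higher with ADT. Klf2, a transcription factor of quiescent cells, was at 651 against 60.3 CPM (ratio interval 7.91 to 15.1) and Klf4 at 563 against 119 CPM (3.78 to 5.99). Nr4a2, an immediate-early nuclear receptor, was at 324 against 52.8 CPM, Tsc22d3, a glucocorticoid-induced gene, at 198 against 30.2 CPM, and Fos at 1991 against 449.5 CPM. Non-cycling macrophages of the same libraries had 556 against 219 CPM for Klf2, 749 against 316 for Klf4 and 2089 against 986 for Fos. Several of these genes are also induced by tissue dissociation, and the dissociation list had a median of 0.67 in this comparison, with its part not tested.

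Lower with ADT in Trp53-deleted mice were the lipid-associated genes, 15 of 20 past 2-fold with a median of -2.62, in a library of 26 members where single cells held much of Spp1. Apart from these, Apobec3, a cytidine deaminase against retroviruses, was at 25.7 against 143 CPM (0.14 to 0.23) in cycling macrophages and 22.9 against 136 CPM in non-cycling ones. Psap, the precursor of lysosomal saposins, was at 1542 against 4236 CPM. Apobec3 was at 120.1 and 99.6 CPM in the cycling macrophages of the Trp53-intact libraries, so the Trp53-deleted ADT library was the lowest of the 4. Cell cycle lists differed little in either ADT comparison, with medians between -0.10 and 0.52.

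**Figure D5:**
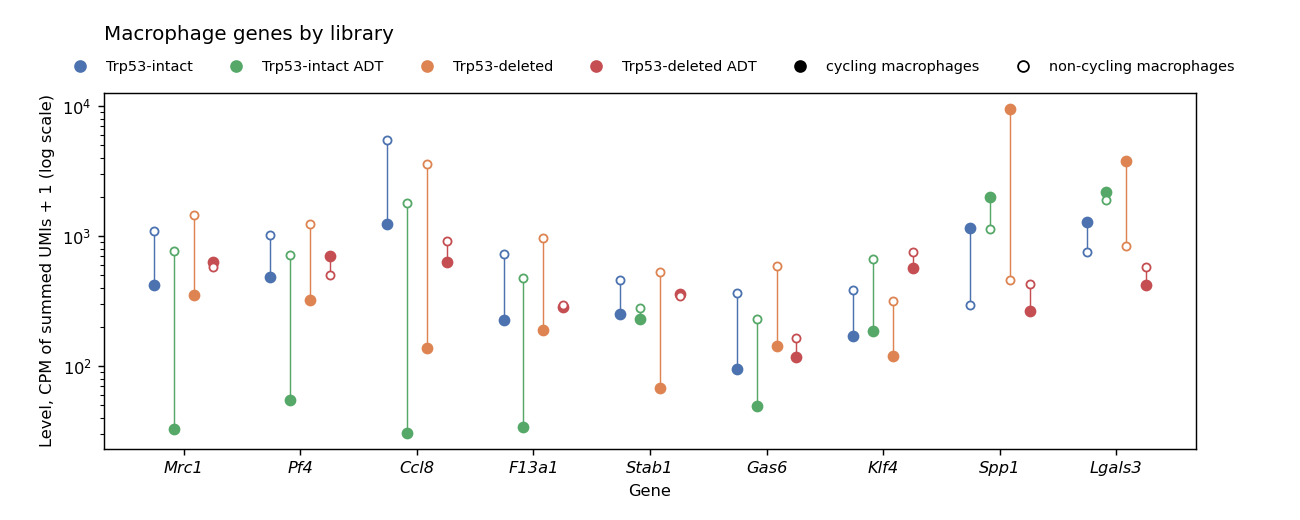
Levels in CPM of summed UMIs plus 1, on a log scale, of resident (Mrc1, Pf4, Ccl8, F13a1, Stab1, Gas6), regulatory (Klf4) and lipid-associated (Spp1, Lgals3) genes in cycling (filled) and non-cycling (open) macrophages of the 4 libraries. For Mrc1, Pf4, Ccl8 and F13a1 the filled circle of the Trp53-intact ADT library is the lowest of the 4, and for Mrc1, F13a1 and Stab1 the filled and open circles of the Trp53-deleted ADT library nearly coincide.

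Genotype comparisons share these libraries with the ADT ones. Trp53-deleted against Trp53-intact without ADT gave 189 genes higher (2.84%) and 250 lower (3.75%) of 6663, and with ADT 631 higher (6.61%) and 309 lower (3.24%) of 9544. Without ADT the lipid-associated list had 13 of 19 genes past 2-fold higher and a median of 1.54, again on few cells, while with ADT 12 of 20 were lower with a median of -1.22. By the rule for genes spread over cells, Prkcd, protein kinase C delta, was higher without ADT (327 against 136 CPM, 1.97 to 2.93). Vcam1, an adhesion molecule, was lower (16.6 against 140.4 CPM, 0.06 to 0.22), and so were Stab1, a scavenger receptor (66.4 against 251 CPM), and Bmp2 (1.51 against 43.5 CPM).

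With ADT, cycling macrophages of Trp53-deleted mice had 634 against 29.8 CPM of Ccl8, 631 against 32.0 CPM of Mrc1 and 699 against 53.8 CPM of Pf4. Non-cycling macrophages had the other order, at 909.8 against 1794, 578 against 771 and 497 against 717 CPM. Ccl8 came from 5 members of the Trp53-intact ADT library, of which 1 held 69.2% of the UMIs. Ccr2, the receptor that brings monocytes to tissues, was at 443 against 80.1 CPM (4.36 to 7.12) in cycling macrophages. It was at 543 against 257 CPM in non-cycling ones. Il1a, the alarmin interleukin 1 alpha, was lower, at 24.8 against 335 CPM (0.06 to 0.09). Itgax, the integrin CD11c, was at 22.2 against 172 CPM, and Lgals3, galectin 3, at 416 against 2171 CPM. For Il1a the non-cycling macrophages had 24.2 against 115 CPM. Resident genes were higher for 10 of 15 measured and lower for 1, with a median of 1.33, where non-cycling macrophages had -0.52. Beside them, fibroblast markers were higher for 4 of 5 (median 3.92), endothelial for 4 of 4 (2.66) and smooth muscle for 2 of 2 measured (1.80).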

How the data were processed

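The authors deposited 1 matrix of raw UMI counts (30905 genes by 36326 barcodes) made with Cell Ranger on the mm10 build, per the submitters' processing notes. These name version 2.1.1 while the matrix header gives 3.1.0, which could not be settled, and no normalization is recorded. Libraries were assigned by barcode suffix through the deposited table. A further allele in every group's genotype and some single genes are not reported here.

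UMI counts were summed per class and library and scaled to CPM with Python 3.11.15 (numpy 2.4.6, scipy 1.17.1, pandas 2.3.3). A symbol with several identifiers (62 symbols) was represented by the one with the most UMIs. log2 ratios used a pseudocount of 5 CPM. With 1 library per group, no test was run. Shares carry exact Clopper-Pearson 95% intervals. The limit that a count of 0 allows is 3 counts of the total. Ratio intervals are conditional binomial. Doublets were scored with Scrublet in scanpy 1.11.5, whose automatic threshold marked 2, 42, 6 and 1 cells, so the highest scores (609, 529, 356 and 816 cells) were used as an alternative and kept in otherwise. The functions were checked on simulated data. Library totals were 90659173, 63803901, 58088678 and 148030357 UMIs over all barcodes, and precision is limited by the number of members.

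Of genes called in all 4 libraries, those named were the 12 higher and 12 lower with the largest smallest ratio outside the cell cycle lists, plus up to 6 per list each way. Between libraries they were the 8 highest and 8 lowest ratios with 10 CPM added, among genes at least 0.5 as high as in every gated other class. Genes given from the lists beyond these (Ccnd1, Ccnd2, Cdk6, Pcna, Cdc20, Stab1, Gas6 and the like) were chosen after their values were seen. The members, gene lists and rules were chosen with earlier results of these data known.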

Additional observations from a re-analysis of the deposited data

Results flagged for a closer look

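The resident macrophage list differed with ADT in opposite directions in the cycling macrophages of the 2 genotypes, with a median log2 ratio of -1.63 in Trp53-intact and 0.62 in Trp53-deleted mice. The monocyte-derived list did the same in its medians, with -0.69 and 0.81, but its members went both ways. In Trp53-intact mice 2 of 13 measured genes were at least 2-fold higher and 5 lower (2.02% and 3.92% of all measured genes). In Trp53-deleted mice 5 of 16 were higher and 3 lower (6.11% and 3.88%). The measured genes differed between the comparisons. Each value compares 1 library with 1 other, and the difference was not tested. In non-cycling macrophages the resident medians were -0.86 and -1.76, and the monocyte-derived ones 0.56 and 0.09.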

How the results depend on the processing

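Of 1746 recomputed values of genes named within libraries (18 alternatives) 4 reversed and 149 moved, and of 432 between libraries 6 reversed. The share of cycling macrophages was, in the order used above, 5.07%, 5.48%, 4.08% and 13.7% at 2 or more Mki67 and Top2a UMIs, and 4.80%, 8.20%, 4.56% and 11.7% among cells of 2000 or more UMIs with up to 10% mitochondrial. It was 2.42% (Trp53-intact) and 6.43% (Trp53-deleted ADT) at 5 or more UMIs, 10.1% (Trp53-deleted ADT) at 30 C1q UMIs per 10000, and 1.96% and 5.76% in the same pair after thinning. Leaving out cells with 3 or more UMIs of other classes' markers gave 1.12%, 1.46% and 2.55% (Trp53-intact, Trp53-intact ADT, Trp53-deleted ADT) on 1, 4 and 6 members, and was run for no other result because so few members were left. At 5 or more UMIs 80.6% of Trp53-deleted ADT members were richer in G2/M. Genes higher in all 4 libraries numbered 47, and lower 46, among cells of 3000 to 15000 UMIs, which left 18, 5, 10 and 65 members. Lower genes numbered 268 with a pseudocount of 1 CPM, 375 with the mean over cells, 90 among cells of 10000 or more UMIs and 294 without the top cell of each gene. Leaving out 1 library gave 403 to 509 higher and 193 to 560 lower, the 560 without the Trp53-deleted ADT library. In cells of 3000 to 15000 UMIs the median over libraries was -1.15 for the resident and -0.58 for the interferon list, and Cd74 (4.2e-04), H2-Eb1 (0.0032) and Spp1 (-0.94) reversed. Spp1 was -0.30 at 3 or more Mki67 and Top2a UMIs per 10000. The lipid-associated list reversed to 0.14 in the Trp53-intact ADT library with the mean over cells, and in the Trp53-deleted library to -1.18 at 3 UMIs per 10000 and -0.82 in cells of 3000 to 15000 UMIs. There MHC class II was 0.32 in those cells and 0.18 with the mean over cells. For ADT in Trp53-intact mice, genes higher numbered 234 (pseudocount of 1 CPM), 417 (mean over cells), 239 (no minimum) and 65 (no top cell), and lower 534 (no minimum). In Trp53-deleted mice they were 942 and 1017 higher (pseudocount of 1 CPM, no top cell) and 666 and 128 lower (mean, no top cell). For genotype without ADT 517, 430 and 58 were higher (mean, no minimum, no top cell) and 445 lower (no minimum), and with ADT 998 higher (pseudocount of 1 CPM), and 524 and 168 lower (mean, no top cell). Without the highest Scrublet scores and without the top cell, Ccl5 was -0.85 and -0.45 and Ifnb1 -3.16 and -1.70 for ADT in Trp53-intact mice, and Ifnb1 was 0.28 and 0.051 for genotype with ADT. The resident list for ADT in Trp53-deleted mice was -0.0059 with the mean over cells. The cause of these differences was not tested, and 26 to 30 members in 2 libraries limit the precision. The alternatives on cells of 10000 or more UMIs and without the top cell were chosen after seeing the data. No paired analysis was possible because each group is 1 library.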
